A study of Mus musculus with 2 samples.

Results

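The mitochondrial ribosomal proteins described here are the 78 genes, of 31053 in the files, whose symbol begins with Mrpl or Mrps and a number, pseudogenes left out. By symbol, 49 belong to the large subunit and 29 to the small subunit. They were measured in γδ T cells of wild-type C57BL/6 mouse fetal thymus. Thymic lobes of embryonic day 15 were kept in culture for 2 days and left untreated, and CD24+ γδ T cells, an immature stage, were sorted by TMRE, a dye that accumulates in mitochondria with their membrane potential. The bright (TMREhi) and dim (TMRElo) fractions gave 1 single-cell library each, made with a 10x Chromium kit that tags the 5′ ends of transcripts, so that age, strain, genotype and culture were shared by both groups. How many embryos were pooled is not given in the sources used here.

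Mitochondria carry their own ribosome, the mitoribosome, which translates the few mRNAs encoded by mitochondrial DNA into core subunits of the respiratory chain and ATP synthase. Its RNAs come from mitochondrial DNA, whereas all its proteins are encoded in the nucleus, made in the cytosol and imported. Some of these proteins descend from bacterial ribosomal proteins and others were added during the evolution of mitochondria.

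In retained cells, those with at least 500 genes and at most 10% of their unique molecular identifiers (UMIs, one per captured transcript) from mitochondrial genes, 317 TMREhi cells held 2905666 UMIs and 34 TMRElo cells held 105080. The median depth was 7465 UMIs per cell in TMREhi and 1679 in TMRElo, and the 5 deepest cells held 44.0% of the retained TMRElo UMIs. The libraries shared 0 cell barcodes. All 6 γδ T cell markers were detected, at a summed 2710 CPM (counts scaled to 1000000 UMIs per group) in TMREhi and 3835 in TMRElo. Trdc, Cd3e and Cd3g were lower in TMREhi, whereas Tcrg-C1 was higher (480 and 324 CPM, 1.48, 1.06 to 2.15). Tcrg-C2 and Tcrg-C4 had intervals that hold 1. The erythroid markers had 0 UMIs in both libraries. Of the myeloid markers, Fcer1g had 424 UMIs in TMREhi and 21 in TMRElo, and Lyz2 177 and 0. Epcam (53 and 5), Pecam1 (119 and 5) and Cd79b (71 and 2) were also detected. The αβ lineage list of 7 markers stood at 302 and 200 CPM, and its members went both ways. Rag1, Rag2, Ptcra and Cd4 had 0 UMIs in TMRElo and Dntt had 1. Of these, Rag2, Ptcra and Cd4 were below 28.5 CPM in TMREhi, the level of 3 TMRElo UMIs, so their absence cannot be read. Cd8a was higher in TMRElo (34.4 and 133 CPM, 0.258, 0.147 to 0.490), as was Cd8b1 (42.7 and 57.1 CPM, 0.747, 0.334 to 2.08). With 1 library per group there was no test. Intervals are 95% and cover counting error only, and the spread between animals or sorts is unknown.

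The promoters shown here are those of the 3 members highest and the 3 lowest in barcodes rich in cytosolic ribosomal protein transcripts within TMREhi, the contrast in which members differed most. Each line gives the 150 bases before the RefSeq transcript start on GRCm38.p6, 5′ to 3′ on the gene's strand. Capitals mark matches to either motif that occurred in these stretches, the ETS core CCGGAAG or the YY1 core AAGATGG, on either strand. Of the high members, Mrpl14 lies at chr17:45686199-45686348 on the plus strand, Mrps33 at chr6:39810937-39811086 on the minus strand and Mrpl52 at chr14:54426759-54426908 on the plus strand. Of the low members, Mrps9 lies at chr1:42851083-42851232, Mrps31 at chr8:22411190-22411339 and Mrps10 at chr17:47369047-47369196, all on the plus strand.
Mrpl14: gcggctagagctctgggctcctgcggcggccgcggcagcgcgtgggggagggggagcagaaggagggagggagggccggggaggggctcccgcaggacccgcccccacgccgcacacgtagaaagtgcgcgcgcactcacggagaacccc
Mrps33: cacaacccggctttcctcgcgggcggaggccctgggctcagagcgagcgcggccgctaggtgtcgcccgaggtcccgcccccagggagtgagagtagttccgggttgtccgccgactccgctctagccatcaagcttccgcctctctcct
Mrpl52: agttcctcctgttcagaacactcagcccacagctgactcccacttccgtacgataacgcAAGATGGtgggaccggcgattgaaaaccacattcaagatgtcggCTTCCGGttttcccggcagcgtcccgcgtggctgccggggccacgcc
Mrps9: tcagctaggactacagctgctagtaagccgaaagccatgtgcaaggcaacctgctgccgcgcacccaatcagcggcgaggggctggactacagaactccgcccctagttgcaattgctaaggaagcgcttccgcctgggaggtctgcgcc
Mrps31: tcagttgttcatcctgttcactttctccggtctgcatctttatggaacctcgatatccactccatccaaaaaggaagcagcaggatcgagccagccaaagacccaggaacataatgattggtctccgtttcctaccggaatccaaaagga
Mrps10: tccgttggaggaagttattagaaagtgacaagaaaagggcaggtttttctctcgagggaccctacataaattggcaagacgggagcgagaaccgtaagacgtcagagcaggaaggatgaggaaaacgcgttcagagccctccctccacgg
In these stretches Mrpl52 alone held matches, 1 to each of the ETS and YY1 cores. RefSeq promoters of 300 bases, 250 before and 50 after the start, were matched for 69 of the 78 members. The ETS core CCGGAAG, a sequence bound by factors such as GABPA, occurred in 25 of the 69 (36.2%), against 11.9% of 17491 protein-coding promoters and 23.8% of the 4970 whose gene reached 20 CPM over all TMREhi barcodes. The YY1 core AAGATGG occurred in 13 (18.8%, against 6.37% and 8.73%), and the NRF1 core GCGCATG in 8 (11.6%, against 4.88% and 8.77%). CACGTG, an E-box, occurred in 5 (7.25%, against 7.90% and 11.1%). Both strands were searched, and a match is a description of the sequence only. The ETS and YY1 cores can share the letters AAG, but in the 4 member promoters that held both the matches were apart. The ETS core was in 14 of 43 large and 11 of 26 small subunit promoters.

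A head-to-head gene arrangement was found for a part of the members. In GENCODE vM21 on GRCm38 all 78 were found, on 17 chromosomes, 11 of them on chromosome 11. A protein-coding gene started on the opposite strand within 1000 bases, head to head, for 33 of 78 members (42.3%). The same held for 2359 of 21897 protein-coding genes (10.8%) and for 1209 of the 6210 that reached 20 CPM (19.5%). By subunit these were 24 of 49 large and 9 of 29 small members. Several partners are mitochondrial themselves. Mrps12 starts 172 bases from Sars2, a mitochondrial seryl-tRNA synthetase, Mrpl36 starts 29 bases from Ndufs6, a subunit of respiratory complex I, and Mrpl43 starts 779 bases from Twnk, the mitochondrial DNA helicase. Mrps11 (chr7:78783119-78792989, plus strand) and Mrpl46 (chr7:78775236-78783531, minus strand) are partners of each other, with starts 412 bases apart, and join 1 small and 1 large subunit protein. Only Mrps6 overlapped exons of another gene on its own strand, so its reads may not be separable from those of Slc5a3.

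Members were more abundant in TMREhi than in TMRElo, with large and small subunits alike in ratio. Together they held 7362 CPM in TMREhi (21391 UMIs) and 5377 CPM in TMRElo (565 UMIs), a ratio of 1.37 (1.26 to 1.49). Large subunit transcripts stood at 4709 and 3378 CPM, a ratio of 1.39 (1.25 to 1.55). Small subunit transcripts stood at 2653 and 1998 CPM, a ratio of 1.33 (1.16 to 1.53). The large subunit ratio divided by the small subunit ratio was 1.05 (0.883 to 1.25), an interval that holds 1. Cytosolic ribosomal proteins had a like ratio of 1.38 (1.36 to 1.40), whereas the mRNAs encoded by mitochondrial DNA, which the mitoribosome translates, were lower in TMREhi (0.726, 0.706 to 0.746) under a limit on mitochondrial UMIs that selects on them. Of these 13 mRNAs 12 were lower, and mt-Atp8, a subunit of ATP synthase, was higher (1.35, 1.17 to 1.56).

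By member, 73 of the 78 passed a mean of 20 CPM over both libraries, and 56 of these were higher and 17 lower in TMREhi. A ratio of at least 1.5 was reached by 24 members upward, against 16.9% of all 5980 genes that passed, and by 4 downward (Mrps9, Mrps31, Mrps30 and Mrpl16), against 41.7% of all genes. The median log2 ratio, taken after adding 1 CPM, was 0.31 over members and -0.34 over all genes. The values over all genes depend on the filter. Among genes with at least 1 UMI, 28 of 78 members were up by 1.5-fold, against 43.5% of all genes, and 5 were down, against 31.8%. The medians were then 0.33 over members and 0.24 over all genes. By subunit the medians were 0.34 for 46 large and 0.29 for 27 small members. Most single members rested on few TMRElo UMIs, since 3 UMIs there equal 28.5 CPM. Mrpl37, Mrpl1 and Mrps22 did not pass, with 92, 100 and 97 TMREhi UMIs and 0 in TMRElo.

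**Figure D1:**
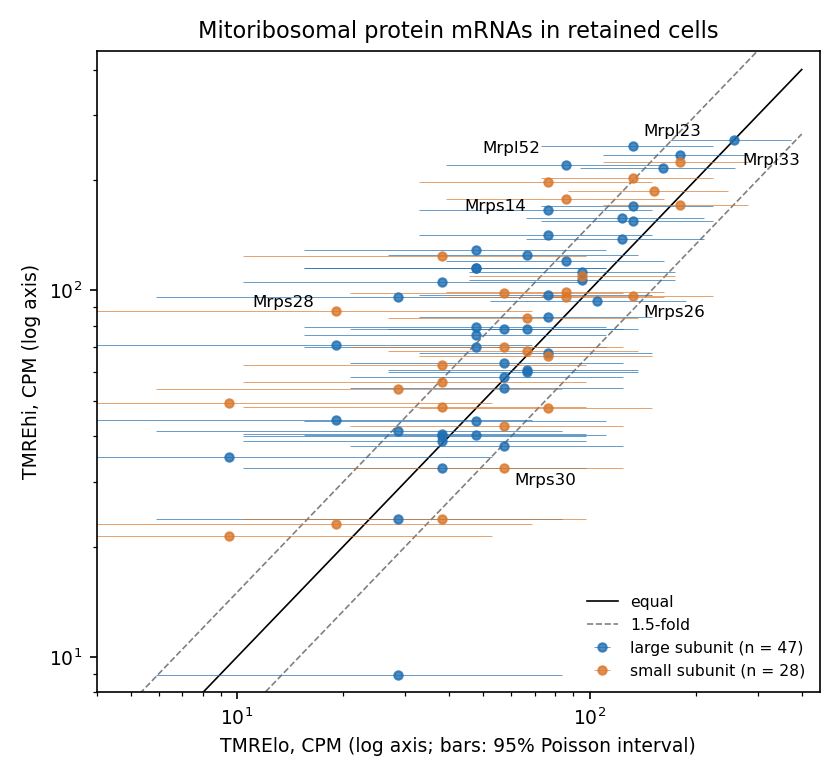
Each point is 1 member with at least 1 TMRElo UMI, with its CPM summed over retained TMRElo cells (x axis, log) and retained TMREhi cells (y axis, log), and horizontal bars are 95% Poisson intervals in TMRElo. Large and small subunit members are mixed along and above the line of equality, and the TMRElo intervals of most members cross it.

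Among the most abundant large subunit members, Mrpl33, the counterpart of bacterial L33, stood at 257 CPM in both libraries (748 and 27 UMIs), a ratio of 1.002 (0.683 to 1.53). Mrpl23, a protein near the exit of the peptide tunnel, stood at 247 CPM in TMREhi and 133 in TMRElo, a ratio of 1.86 (1.10 to 3.41). Mrpl52, a mitochondria-specific protein, stood at 220 and 85.6 CPM, a ratio of 2.56 (1.34 to 5.63). Mrpl52 was below Mrpl33 by more than counting error in both libraries. Their levels had the intervals 203 to 237 and 239 to 277 CPM in TMREhi, and 39.2 to 163 and 169 to 374 CPM in TMRElo. In TMRElo 1 cell held 33.3% of the 9 Mrpl52 UMIs. Mrpl18 (234 and 181 CPM) and Mrpl30 (216 and 162 CPM) had intervals of the ratio that hold 1. These CPM are tags per transcript end with no scaling by length, and capture can differ between genes.

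The highest large subunit ratios among members with at least 8 TMRElo UMIs expected at the TMREhi level were those of Mrpl35 (95.7 and 28.5 CPM, 3.35, 1.14 to 16.4), Mrpl4 (105 and 38.1 CPM, 2.77, 1.07 to 10.2) and Mrpl58 (129 and 47.6 CPM, 2.71, 1.15 to 8.40), each on 3 to 5 TMRElo UMIs. Mrpl58 is a peptidyl-tRNA hydrolase that rescues stalled mitoribosomes and is built into the large subunit. Mrpl12, a protein of the stalk that recruits translation factors, stood at 165 and 76.1 CPM, a ratio of 2.17 (1.09 to 5.05). Under the same limit the lowest were Mrpl24 (93.6 and 105 CPM, 0.894, 0.492 to 1.81), Mrpl33 and Mrpl32 (84.7 and 76.1 CPM, 1.11, 0.556 to 2.61). Mrpl45, which binds the ribosome's tunnel exit to the inner membrane, stood at 44.1 and 47.6 CPM (0.926, 0.387 to 2.90).

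In the small subunit, the most abundant member was Mrps21, counterpart of bacterial S21, with 224 CPM in TMREhi and 181 in TMRElo (1.24, 0.787 to 2.07). Mrps33, a mitochondria-specific protein, stood at 202 and 133 CPM (1.52, 0.896 to 2.79), and Mrps16, of bacterial descent, at 187 and 152 CPM (1.23, 0.748 to 2.16). Mrps14, a protein of the small subunit head, stood at 198 and 76.1 CPM, a ratio of 2.59 (1.31 to 6.04). The interval thus excluded 1 for Mrps14, and held 1 for Mrps21, Mrps33 and Mrps16. The other high ratios were those of Mrps28 (87.8 and 19.0 CPM, 2 TMRElo UMIs, 4.61, 1.26 to 38.3) and Mrps18c (124 and 38.1 CPM, 3.26, 1.26 to 12.04). Among members with at least 8 expected TMRElo UMIs the lowest were those of Mrps26 (96.4 and 133 CPM, 0.723, 0.424 to 1.34), Mrps24 (171 and 181 CPM, 0.946, 0.599 to 1.59) and Mrps17 (96.0 and 85.6 CPM, 1.12, 0.582 to 2.48). Mrps12, a protein of the decoding centre, stood at 109 and 95.2 CPM (1.15, 0.617 to 2.42).

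Symbols of 3 members do not say where the protein sits, by general knowledge of mitoribosome structures, from which the groups by structure, descent, stalk and tunnel exit were also written. Mrps18a and Mrps30 are in the large subunit of the solved mitoribosome, and Mrps36 belongs to the oxoglutarate dehydrogenase complex and is no mitoribosomal protein. Mrps36 stood at 177 CPM in TMREhi and 85.6 in TMRElo (2.07, 1.08 to 4.54). Mrps30 stood at 32.7 and 57.1 CPM (0.573, 0.254 to 1.60), and Mrps18a at 68.5 and 66.6 CPM (1.03, 0.490 to 2.59). Over retained TMREhi cells the large subunit had 1.78 (1.73 to 1.83) UMIs for each small subunit UMI by symbol, and 2.03 (1.97 to 2.09) with these 3 placed by structure. In TMRElo the corresponding ratios were 1.69 (1.42 to 2.01) and 1.96 (1.64 to 2.35).

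**Figure D2:**
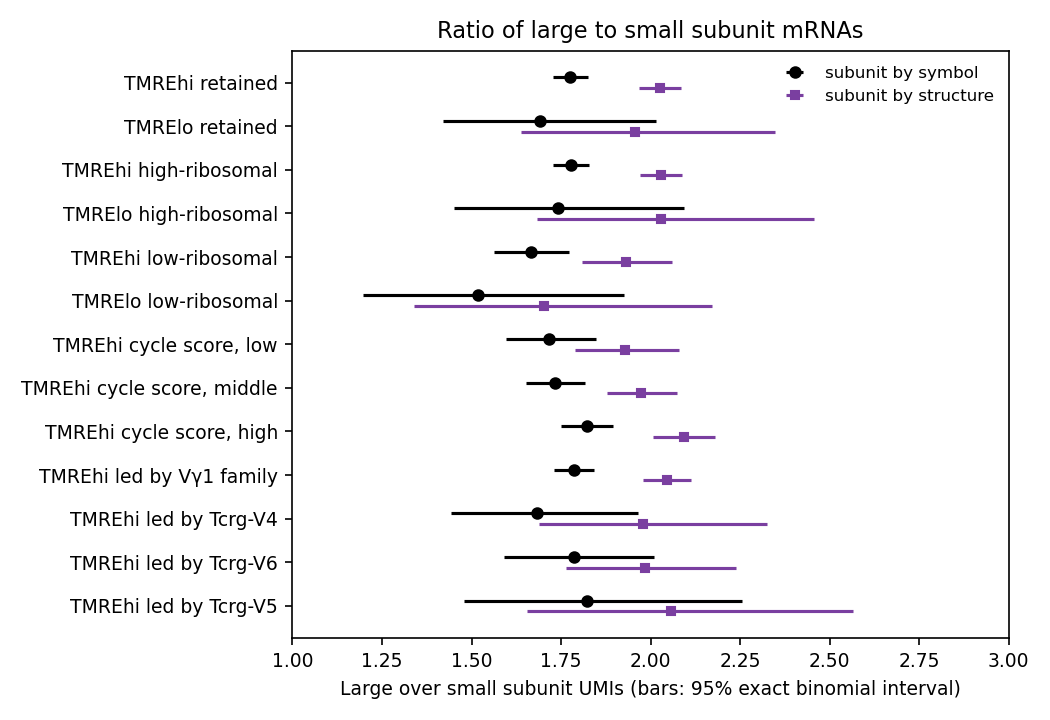
The x axis is the ratio of large to small subunit UMIs in each group of cells, with 95% exact binomial intervals; circles take the subunit from the symbol, and squares from the structure. By symbol the ratios run from 1.52 in low-ribosomal TMRElo barcodes to 1.82 in TMREhi cells of highest cycle score or led by Tcrg-V5, and most intervals overlap.

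Split by descent, large subunit members with a bacterial counterpart had a library ratio of 1.35 (1.19 to 1.53) and mitochondria-specific ones 1.51 (1.24 to 1.85). For the small subunit these were 1.37 (1.15 to 1.64) and 1.24 (0.952 to 1.63). The 5 stalk members, which face the translation factors, stood at 437 and 314 CPM (1.39, 0.985 to 2.03). The 9 members around the tunnel exit, where new peptides meet the membrane, stood at 688 and 590 CPM (1.17, 0.906 to 1.53). All of these intervals overlap, so no structural group stood apart from another at this depth.

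The other genes of mitochondrial translation did not share one direction between libraries. Mitoribosomal proteins with other symbols (Dap3, Gadd45gip1, Chchd1, Ptcd3 and Aurkaip1) had a summed ratio of 1.63 (1.17 to 2.34), and 4 of the 5 were higher in TMREhi. Dap3, a GTP-binding protein of the small subunit, counted 264 UMIs in TMREhi against 1 in TMRElo, and Gadd45gip1, a large subunit protein, had 336 and 2. Chchd1, of the small subunit, is counted among the 4 but stood near level at 173 and 171 CPM (1.01, 0.634 to 1.72). Of 11 translation factors 6 passed, 2 higher and 4 lower, with a summed ratio of 0.910 (0.646 to 1.32), and Tufm, the elongation factor, stood at 82.6 and 76.1 CPM. Of 26 assembly factors 11 passed, 3 higher and 8 lower (0.853, 0.654 to 1.13), and of 14 genes of mitochondrial transcription and RNA care 8 passed, 4 in each direction (0.986, 0.742 to 1.34). The tRNA synthetase list of 22 genes held symbols ending in ars2, with Gars and Kars, whose enzymes also serve the cytosol. It also held Qrsl1, Gatb and Gatc, which are subunits of an amidotransferase and not synthetases. Its sum was lower in TMREhi (0.376, 0.330 to 0.431), and Lars2, the leucyl enzyme, held 1533 of 2528 TMREhi UMIs and 192 of 243 TMRElo UMIs. Without Lars2, a sum chosen after seeing the data, the other 21 genes stood at 342 and 485 CPM (995 and 51 UMIs, 0.706, 0.532 to 0.954).

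The makeup of the libraries moved with these ratios. Barcodes with under 15% of their UMIs from cytosolic ribosomal protein genes (Rpl and Rps symbols), here low-ribosomal, were 14.8% of retained TMREhi cells and 55.9% of retained TMRElo cells. Among high-ribosomal barcodes alone the library ratio of all members was 1.21 (1.10 to 1.32), and among low-ribosomal barcodes 1.43 (1.27 to 1.61). G2/M genes stood at 1.84 (1.70 to 2.00) and S phase genes at 1.27 (1.14 to 1.42) times the TMRElo level in TMREhi. What depth and cycling contributed to the library ratio was not tested.

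The largest difference in members was between the ribosomal-share classes. Within TMREhi, over barcodes with at least 500 genes and no limit on mitochondrial UMIs, members stood at 7398 CPM in 292 high-ribosomal barcodes and 3194 CPM in 733 low-ribosomal ones, a ratio of 2.32 (2.24 to 2.39). Large subunit members stood at 4733 and 1995 CPM (2.37, 2.27 to 2.47) and small subunit members at 2664 and 1198 CPM (2.22, 2.11 to 2.35). The large ratio over the small ratio was 1.07 (0.997 to 1.14). TMRElo had the same direction, with 6139 CPM in 16 high-ribosomal and 2237 CPM in 117 low-ribosomal barcodes (2.74, 2.38 to 3.17). The class is cut from a share of UMIs, which does not include the members, and low-ribosomal TMREhi barcodes had a median of 1555 UMIs and 16.9% mitochondrial UMIs, against 8356.5 UMIs and 3.55% in high-ribosomal ones.

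Of 75 members that passed in TMREhi, 68 were higher in the high-ribosomal class. A ratio of at least 1.5 was reached by 58 upward, against 18.6% of 6687 genes, and by 1 downward (Mrps9), against 56.2%. The median log2 ratio was 1.13 over members and -0.80 over all genes. Of the members with at least 30 UMIs, here all 78, the most extreme were 3 at each end. Mrpl14, a protein of the interface between subunits, stood at 126 CPM in the high and 18.3 CPM in the low class (6.87, 4.54 to 10.9). Mrps33 stood at 202 and 36.6 CPM (5.53, 4.12 to 7.58), and Mrpl52 at 223 and 48.0 CPM (4.65, 3.58 to 6.12). At the other end, Mrps9, counterpart of bacterial S9, stood at 46.9 CPM in the high and 72.4 CPM in the low class (0.648, 0.495 to 0.850). Mrps31, a mitochondria-specific protein, stood at 23.6 and 33.5 CPM (0.704, 0.476 to 1.05), and Mrps10, counterpart of bacterial S10, at 43.1 and 52.6 CPM (0.820, 0.607 to 1.12). All 3 of the lowest members in TMREhi thus belong to the small subunit, yet the summed ratios of the subunits were close. In TMRElo these 3 had ratios above 1: Mrps9 had 8 UMIs in the high and 10 in the low class (1.28, 0.439 to 3.60), Mrps10 6 and 7 (1.37, 0.381 to 4.76) and Mrps31 3 and 2 (2.40, 0.275 to 28.7), with intervals that hold 1. The lowest of the 70 that passed there were Mrpl1 (0 and 7 UMIs), Mrpl3 (0 and 10) and Mrpl9 (1 and 8), all of the large subunit. The interval of Mrpl3 excluded 1 (0 to 0.714), and those of Mrpl1 (0 to 1.11) and Mrpl9 (0.00451 to 1.49) hold 1. These members passed the filter through their low-class UMIs. Mrps22 (0 and 4 UMIs) and Mrpl37 (0 and 2) did not pass, so no subunit pattern can be read from these counts.

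The 5 stalk members had a class ratio of 2.72 (2.35 to 3.16) and the 9 tunnel exit members 2.11 (1.90 to 2.34). These intervals barely miss each other and cover counting error only, and the part of transcript length in this difference was not tested. Of the mitoribosomal proteins with other symbols 4 of 5 were higher in the high-ribosomal class, led by Aurkaip1 (147 and 54.1 CPM, 2.71, 2.11 to 3.54), whereas Ptcd3, of the small subunit, was lower (33.5 and 98.3 CPM, 0.341, 0.260 to 0.447). Translation factors as a sum were lower (0.708, 0.635 to 0.790), as were assembly factors (0.656, 0.603 to 0.715) and the tRNA synthetase list (0.435, 0.412 to 0.459), of which 0 of 11 genes that passed were higher. The ratio of that list was 0.487 (0.445 to 0.534) without Lars2. Slirp, an RNA-binding partner of Lrpprc that protects mitochondrial mRNAs, was higher (114 and 22.1 CPM, 5.16, 3.52 to 7.82). Mitochondrially encoded mRNAs had a ratio of 0.214 (0.213 to 0.216). The αβ lineage list, all 7 markers detected, stood at 245 CPM in the high and 1166 CPM in the low class, with Rag1 at 16.1 and 403 CPM. Among barcodes with a γ V segment and no Rag1 UMI the class ratio of members was 2.38 (2.28 to 2.49).

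Transcript length moved with the class ratio. Across the 75 members, Spearman's rho of the log2 ratio with the longest coding transcript was -0.40, a description over genes that share the same libraries and are not independent replicates. The 25 shortest members, up to 1056 bases, had a median log2 ratio of 1.45, and the 25 longest, from 1849 bases, 0.83. Outside the members and the ribosomal and mitochondrial genes, rho was -0.73 over 6403 genes, with medians of 1.34 for 407 genes up to 1056 bases and -1.18 for 4988 genes from 1849 bases. Short members thus had a median near that of other short genes, and long members a higher median than other long genes. The long bin has no upper limit, members reach 7300 bases, and lengths within it were not matched. Members were therefore not compared with genes of like length. Between libraries rho was -0.14 over 73 members, and the part of length in the class ratio was not tested.

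**Figure D3:**
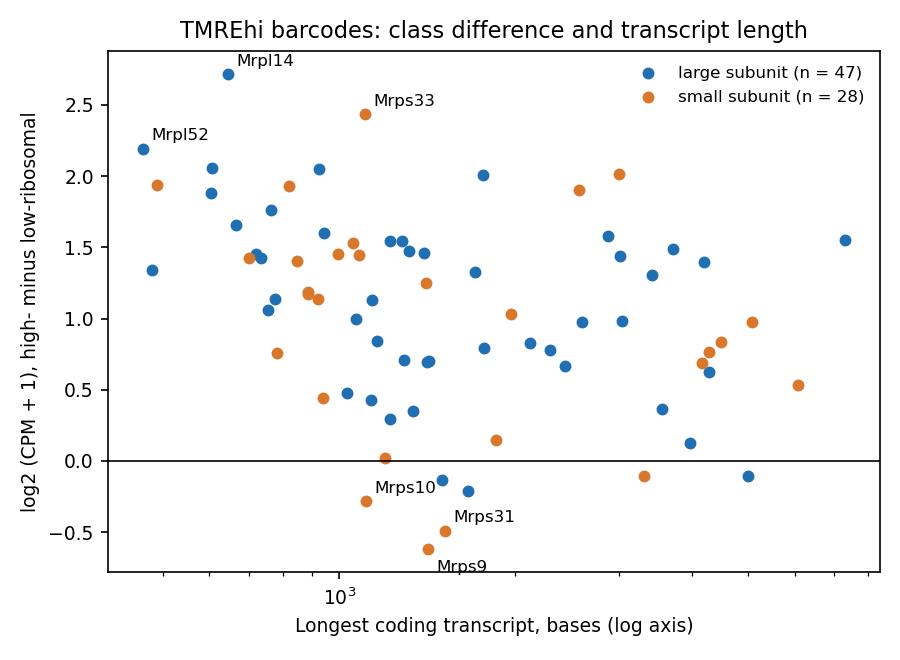
Each point is 1 of the 75 members that passed, with the length of its longest coding transcript (x axis, log) and the difference in log2 (CPM + 1) between high- and low-ribosomal TMREhi barcodes (y axis). Most points lie above 0, the highest are Mrpl14, Mrps33 and Mrpl52, and the 7 points below 0 belong to transcripts longer than those of Mrpl14, Mrps33 and Mrpl52.

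Cycling was scored in TMREhi cells with at least 2000 UMIs, each thinned to 2000, as the UMIs of 96 S and G2/M genes. The lowest range (up to 8 UMIs, 93 cells) and the highest (from 33 UMIs, 90 cells) are ranges of a score and no cell types, and 34 and 24 cells lay within 2 UMIs of the cuts. Members stood at 5906 CPM in the lowest, 7722 in the middle and 7831 CPM in the highest range, a ratio of highest to lowest of 1.33 (1.27 to 1.38). The step lay between the lowest range and the middle, whose interval of 7546 to 7901 CPM overlaps that of the highest. Large subunit members had a ratio of 1.35 (1.29 to 1.43) and small subunit members 1.28 (1.20 to 1.37), and the former over the latter was 1.06 (0.977 to 1.15). Cytosolic ribosomal proteins went the other way (0.850, 0.845 to 0.854), as did the sum of mitochondrially encoded mRNAs (0.853, 0.839 to 0.867), of which 10 of 13 were lower. Of the 3 that were higher, mt-Nd1, a subunit of complex I, had an interval that excludes 1 (1.19, 1.11 to 1.28).

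Of 75 members that passed, 63 were higher in the highest range. A ratio of at least 1.5 was reached by 27 upward, against 24.6% of 5318 genes, and by 0 downward, against 20%. The median log2 ratio was 0.46 over members and 0.05 over all genes. Of the 77 members with at least 30 UMIs over both ranges, the highest ratios began with Mrps10, which stood at 48.7 CPM in the highest and 15.0 in the lowest range (3.24, 1.55 to 7.80). Mrpl1, of the stalk that guides spent tRNAs out, stood at 37.1 and 13.2 CPM (2.82, 1.27 to 7.36), and Mrpl10, the base of the factor-binding stalk, at 72.7 and 26.3 CPM (2.76, 1.57 to 5.23). The lowest ratios were those of Mrpl24, near the tunnel exit (86.5 and 120 CPM, 0.719, 0.526 to 0.990), Mrpl38 (33.4 and 45.1 CPM, 0.741, 0.443 to 1.27) and Mrpl3 (43.6 and 52.7 CPM, 0.828, 0.521 to 1.35). In TMREhi, Mrps10 was thus high with cycling and not with the ribosomal share. Myeloid markers, all 5 detected over both ranges, stood at 901 CPM in the lowest and 50.9 CPM in the highest range. That sum rested mainly on Fcer1g (271 and 68 UMIs) and Lyz2 (175 and 1), with Csf1r at 18 and 0, Cd68 at 13 and 1 and Itgam at 2 and 0. The γδ T cell markers stood at 3534 and 2380 CPM, with Tcrg-C2 alone going the other way (254 and 278 CPM). The αβ lineage list stood at 164 CPM in the lowest and 313 CPM in the highest range, with Dntt at 24 and 212 UMIs and Ptcra at 0 and 50. Rag1 and Rag2 went the same way, Cd8a was near level (33.9 and 34.9 CPM), and Cd8b1 (69.6 and 45.8 CPM) and Cd4 (5.64 and 2.18 CPM) were lower in the highest range. The part of these lists in the cycle ratio was not tested.

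Other translation genes followed the cycle less evenly. All 5 mitoribosomal proteins with other symbols were higher in the highest range, Dap3 most (105 and 48.9 CPM, 2.14, 1.40 to 3.39). The intervals of Chchd1, Ptcd3, Aurkaip1 and Gadd45gip1 hold 1. Assembly factors (1.07, 0.922 to 1.26) and translation factors (1.02, 0.841 to 1.24) had intervals that hold 1, and the sum of the tRNA synthetase list stood at 0.800 (0.717 to 0.892). That direction was set by Lars2, which had 528 UMIs in the highest and 353 in the lowest range (0.578, 0.504 to 0.663). The other 21 genes of the list together had a ratio of 1.36 (492 and 140 UMIs, 1.12 to 1.65). Of these UMIs Gars held 109 and 19 and Kars 74 and 16, and a sum without Gars and Kars was not taken. In TMRElo members stood at 5588 CPM in 8 cells of the lowest range, 7168 CPM in 5 of the middle and 5568 CPM in 2 of the highest.

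**Figure D4:**
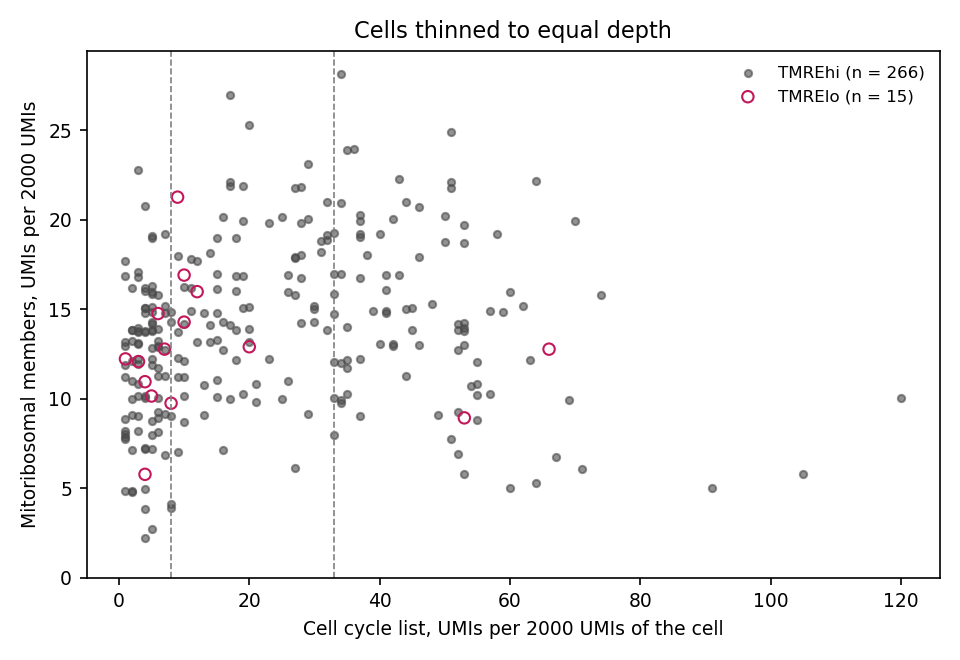
Each point is 1 retained cell thinned to 2000 UMIs, with UMIs of the 96 cycle genes (x axis) and of the members (y axis, spread slightly for overlap), and dashed lines mark the cuts at 8 and 33. Member counts of TMREhi cells run from 2 to 23 in the lowest range, 6 to 27 in the middle and 5 to 28 in the highest. The 15 of 34 retained TMRElo cells deep enough to be thinned lie within that scatter.

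Per cell, among retained cells deep enough to be thinned, the medians of the libraries and of the cycle ranges were close beside the scatter of single cells. In thinned TMREhi cells the members held 14 UMIs of 2000 at the median (2 to 28), from 12 different member genes, and in 15 of 34 retained TMRElo cells 13 UMIs (6 to 21). The 15 high-ribosomal TMRElo barcodes deep enough to be thinned had the same values. The comparison of libraries thus does not cover the low-ribosomal cells, 55.9% of retained TMRElo cells. The median was 13 in the lowest, 15 in the middle and 14.5 in the highest cycle range of TMREhi. The ribosomal-share classes were further apart. Low-ribosomal TMREhi barcodes deep enough to be thinned, 240 of 733, had a median of 7 (0 to 21), against 14 (2 to 28) in high-ribosomal ones.

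Retained TMREhi cells were also grouped by the γ V segment with most UMIs. The Trgv2, Tcrg-V1 and Tcrg-V3 genes, counted together as the Vγ1 family, led in 191 cells, Tcrg-V6 in 39, Tcrg-V4 in 10, Tcrg-V5 in 7 and Tcrg-V7 in 3, while 50 had no γ V UMI and 17 a tie. Members stood highest at 7585 CPM (7473 to 7700) in Vγ1 family cells, with 7482 (6562 to 8496) for Tcrg-V7, 7186 (6670 to 7731) for Tcrg-V4 and 7009 (6338 to 7733) for Tcrg-V5, whose intervals overlap. Summed over their cells, those led by Tcrg-V6 stood lowest, at 6113 CPM (5781 to 6459). By cell, at 2000 UMIs each, the order was another: the median was 14 member UMIs in 187 Vγ1 family cells, 13 in 35 Tcrg-V6 cells, 12 in 8 Tcrg-V4 cells and 9 in 7 Tcrg-V5 cells. The 5 cells with most member UMIs held 85.1% of them among Tcrg-V4 cells, and 1 cell held 54.5% among Tcrg-V5 cells, so their levels rest on few cells. In TMRElo the Vγ1 family cells stood at 5654 CPM (18 cells), the 4 Tcrg-V4 cells had 9 member UMIs, and 0 cells were led by Tcrg-V6.

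Tcrg-V6 cells had 0.806 (0.761 to 0.853) times the member CPM of Vγ1 family cells, with 0.806 for the large and 0.806 for the small subunit. Of 73 members that passed, 19 were higher and 54 lower. A ratio of at least 1.5 was reached by 2 upward (Mrps25 and Mrpl4), against 22.6% of 5299 genes, and by 26 downward, against 24.8%. The median log2 ratio was -0.34 over members and -0.04 over all genes. With at least 30 UMIs over both groups (77 members), the highest ratio was that of Mrpl4, a protein of the tunnel wall, which stood at 169 CPM in Tcrg-V6 and 105 in Vγ1 family cells (1.61, 1.09 to 2.30), with Mrps25 at 72.3 and 47.6 CPM (1.52, 0.822 to 2.62) and Mrpl38 at 53.0 and 39.2 CPM (1.35, 0.651 to 2.54). At the low end Mrps10 stood at 14.5 and 45.8 CPM (0.316, 0.0640 to 0.948). Mrpl44 had 1 UMI in Tcrg-V6 cells and 78 in Vγ1 family cells, a CPM ratio of 0.140 (0.00351 to 0.804), and Mrps27 had 1 and 62 (0.176, 0.00440 to 1.02).

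The γ V groups differed in cycling. Of the Tcrg-V6 cells 28 of 35 scored were in the lowest range and 1 in the highest, against 48 and 74 of 187 Vγ1 family cells. Within the lowest range the Tcrg-V6 ratio was 0.952 (0.875 to 1.04), an interval that holds 1. In the highest range 1 Tcrg-V6 cell gave 0.819 (0.640 to 1.03). The αβ lineage list, all 7 markers detected over both groups, stood at 53.0 CPM in Tcrg-V6 and 221 CPM in Vγ1 family cells, and its part in the ratio was not tested.

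Tcrg-V4 and Vγ1 family cells did not differ in members beyond counting error (0.947, 0.878 to 1.02), with large subunit members at 0.927 (0.842 to 1.02) and small subunit members at 0.984 (0.867 to 1.11). Of 75 members 4 were at least 1.5-fold higher and 13 lower, against 20.9% and 19.8% of 5073 genes, and the median log2 ratio was -0.10. Among 77 members with at least 30 UMIs, the highest ratio was that of Mrpl3, a protein near the peptidyl transferase centre, which stood at 110 CPM in Tcrg-V4 and 39.2 in Vγ1 family cells (2.80, 1.35 to 5.26), and 1 cell held 36.4% of its Tcrg-V4 UMIs. Mrpl38 and Mrpl16 each stood at 70.0 and 39.2 CPM (1.78, 0.697 to 3.83). The lowest were Mrps27, with 0 and 62 UMIs, Mrps18b (19.99 and 58.2 CPM, 0.343, 0.0412 to 1.27) and Mrpl10 (19.99 and 57.3 CPM, 0.349, 0.0418 to 1.29).

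Against each other, Tcrg-V6 cells had 0.851 (0.776 to 0.934) times the member CPM of Tcrg-V4 cells. Of 73 members 10 were at least 1.5-fold higher and 23 lower, against 26.4% and 30.4% of 5074 genes, shares near or below those of all genes. Among the 23 members with at least 30 UMIs over both groups, the lowest ratios were those of 3. Mrps33 stood at 101 CPM in Tcrg-V6 and 280 in Tcrg-V4 cells (0.362, 0.195 to 0.661), Mrps36 at 96.4 and 220 CPM (0.439, 0.227 to 0.842) and Mrpl18 at 125 and 230 CPM (0.545, 0.299 to 1.0004). Mrps5 (125 and 70.0 CPM), Mrpl4 (169 and 99.9 CPM) and Mrpl36 (116 and 70.0 CPM) had the highest ratios of these 23, all with intervals that hold 1. With each cell weighted equally the ratio of all members was 1.01, and among low-ribosomal barcodes 1.02 (0.869 to 1.21), so its direction was not kept.

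**Figure D5:**
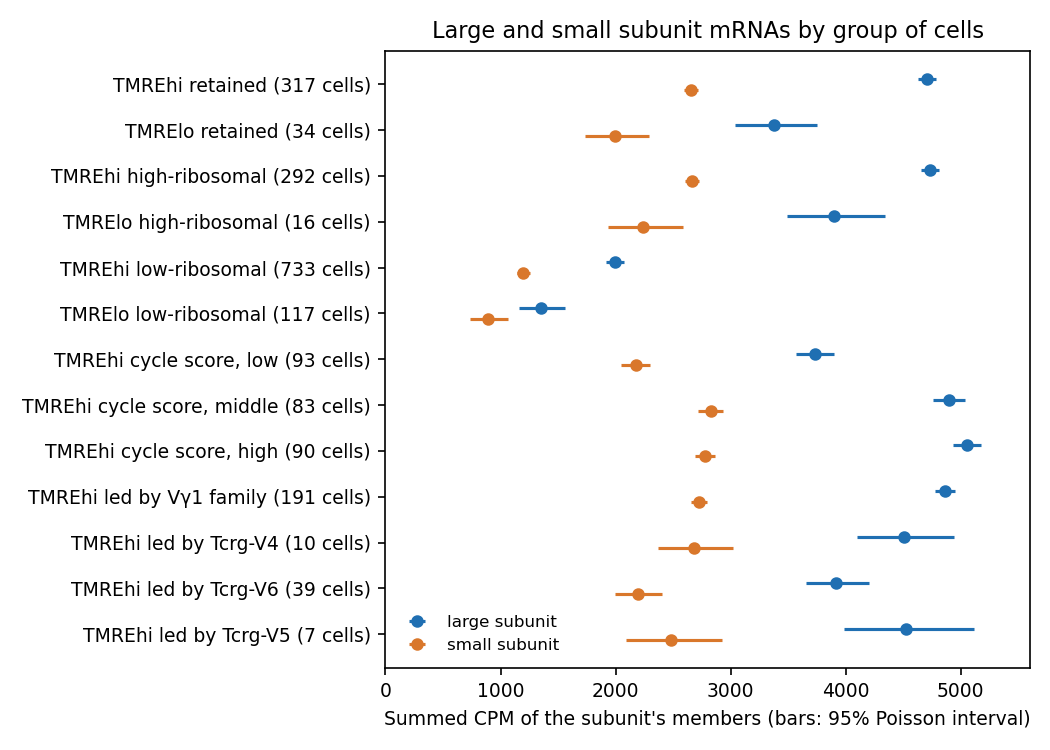
The x axis is the summed CPM of large and small subunit members in each group of cells, with 95% Poisson intervals, and numbers of cells are in brackets. Both subunits shift together: lowest in low-ribosomal barcodes of both libraries, intermediate in cells of low cycle score or led by Tcrg-V6, and highest in TMREhi cells of middle and high cycle score.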

How the data were processed

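Whole UMI counts per gene and barcode, deposited by the authors, were used; Cell Ranger 3.0.2 made them per the file headers, and the submitters' processing notes name Cell Ranger 3.0 and mm10. Annotation release and cell calling: not given in the sources used here. Counts were summed over cells and scaled to CPM. Log2 ratios used a pseudocount of 1 CPM, and genes passed at a mean of 20 CPM over both groups. Poisson (levels), binomial (shares) and conditional binomial (ratios of CPM) intervals are exact; the interval of the large over the small subunit ratio uses the normal approximation on the log scale. Scripts were tested on simulated data. Scrublet (scanpy 1.11.5) marked 2 of 1025 TMREhi and 24 of 133 TMRElo barcodes (0.195% and 18.0%); at that TMREhi rate it cannot be taken to have worked, and marked barcodes were kept. Named members were, per subunit, the 5 with most UMIs and the 3 largest and 3 smallest library ratios among those with at least 8 expected TMRElo UMIs; per other contrast the 3 largest and 3 smallest with at least 30 UMIs; and 6 by name. Subunit by structure, descent, stalk and tunnel exit groups were written from general knowledge of mitoribosome structures, not read from a file. Members and lists were chosen with earlier results of these data known. Computation ran in Python 3.11.15 with pandas 2.3.3, scipy 1.17.1, numpy 2.4.6 and matplotlib 3.10.9. No test was possible with 1 library per group, and alternatives are in the closing section.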

Additional observations from a re-analysis of the deposited data

How the results depend on the processing

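No paired analysis was possible because each group has 1 library. Every alternative run kept members higher in TMREhi. The library ratio of all, large and small subunit members was 1.63, 1.67 and 1.57 over barcodes with at least 500 genes (median log2 0.71, 47 members up and 1 down by 1.5-fold), 1.71, 1.74 and 1.66 over all barcodes (0.78, 48 and 0), and 1.58, 1.59 and 1.57 with cells weighted equally (0.71, 42 up). Stricter limits (1000 genes, 5% mitochondrial UMIs) gave 1.22 for all and 1.15 for small subunit members (0.15). High-ribosomal barcodes gave 1.21 for all and 1.21 for large subunit members (0.081), low-ribosomal ones a median of 0.59, and those with γ V and no Rag1 UMI 7 down. Without the 5 deepest cells of each library the ratios were 1.54 for all and 1.62 for small subunit members (0.58, 37 up, 8 down). CPM outside ribosomal and mitochondrial genes gave 1.52 (0.48, 2 down), and a 50 CPM filter 1 down. A filter of 1 UMI gave 28 members up and 5 down (0.33), but moved the median over all genes to 0.24, with 43.5% up. For the class, a limit of 10% gave 2.42 for all and 2.48 for large members (0 down), γ V without Rag1 gave 2 down, and CPM outside ribosomal and mitochondrial genes gave 2.72, 2.78 and 2.61 (0 down). That scaling gave 1.21, 1.24 and 1.16 for the cycle, with 1 down. Tcrg-V6 over the Vγ1 family was 0.934 in low-ribosomal barcodes, where Mrps10 reversed to 1.47, and 0.952 in the lowest cycle range; its large over small ratio was 0.765 in the highest, with 1 Tcrg-V6 cell. Tcrg-V4 over the Vγ1 family was 0.831 with cells weighted equally. Tcrg-V6 over Tcrg-V4 reversed to 1.02 in low-ribosomal barcodes (Mrps33 1.14) and to 1.01 with cells weighted equally, and was 0.941 in the lowest cycle range, with a large over small ratio of 0.840 in the highest. The cause was not tested. Leaving Lars2 out of the tRNA synthetase list, chosen after seeing the data, reversed its cycle ratio from 0.800 to 1.36, with Gars and Kars kept in. It gave 0.706 between libraries and 0.487 for the class. Depth limits TMRElo members below 28.5 CPM, the level of 3 UMIs.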
